A study of Mus musculus with 18 samples.

Results

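Junctional adhesion molecules and nectins are immunoglobulin-type proteins that join neighbouring cells. Described here are 9 genes of these families and of the nectin-binding protein afadin, out of the 49671 gene identifiers of the count table. The 9 genes are Jam2, Jam3, F11r, Nectin1, Nectin2, Nectin3, Pvr, Afdn and Igsf5. They were chosen by gene family with their levels in these samples already known, so their levels, fold changes and calls are a description and carry no p-value. Each was matched by its Ensembl identifier to the GENCODE M21 annotation of the mouse genome build GRCm38.

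RNA was sequenced from mouse embryonic stem (ES) cells grown inside Matrigel, a gel of basement membrane proteins, with growth factors depleted. There were 6 groups of 3 samples. Wild-type E14 ES cells at passage 20 were kept for 48 h in 4 media. CH held the GSK3 inhibitor CHIR99021 at 3 µM, which activates Wnt/β-catenin signalling, and DMSO is the solvent control. The medium named 2i held CHIR99021 at 3 µM with the MEK inhibitor PD0325901 at 0.4 µM and keeps ES cells naive, whereas Fgf2 at 12 ng/ml with Activin A at 20 ng/ml moves them towards the primed epiblast. The other 2 groups were Esrrb fl/fl ES cells at passage 25, labelled as from Acr-EGFP transgenic mice, which carry loxP sites in both copies of Esrrb and a Cre recombinase (MerCreMer) that tamoxifen switches on. Esrrb null cells had received 4-hydroxytamoxifen (4OHT) 1 day before and Esrrb floxed cells had not, and both were then kept for 24 h in CHIR99021 at 3 µM. No group received 4OHT without loxP sites in Esrrb. Exposure to 4OHT and active Cre thus cannot be told apart from loss of Esrrb. Esrrb is a nuclear receptor of the naive pluripotency network. The Esrrb fl/fl groups differ from the E14 groups in cell line, passage and time, so these differences cannot be told apart and values across the lines are only set side by side. The study's general statement is that its experiments were repeated independently, but neither it nor the labels say of each RNA sample whether it came from its own culture, so p-values measure the spread between these samples, part of which may be technical.

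Junctional adhesion molecules (JAMs) are short membrane proteins with a pair of immunoglobulin domains outside the cell. F11r encodes JAM-A, Jam2 JAM-B and Jam3 JAM-C. JAM-A binds itself across cells at tight junctions, and JAM-B and JAM-C bind each other. Their cytoplasmic ends attach to PDZ-domain proteins, among them the scaffold ZO-1 and the polarity protein Par-3. Nectins start cell contacts at adherens junctions and bind other nectins across cells, nectin-3 being a partner of both nectin-1 and nectin-2. Inside the cell their ends attach to afadin, encoded by Afdn, which ties them to actin. Pvr encodes a nectin-like receptor that binds nectin-3 and lacks the afadin-binding end. Igsf5 encodes JAM-4, found mostly in kidney and gut epithelia.

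The last 30 bases of the coding sequences are shown because this end carries the PDZ-binding tail through which JAMs and nectins recruit Par-3, ZO-1 and afadin. The capitals mark the last 12 coding bases before the stop codon. The sequences were read from the GENCODE M21 transcripts, 5′ to 3′, and the positions are those of build GRCm38.

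Jam2, chr16:84822790-84822819, plus strand: ttcaagcacacaaaaTCCTTTATAATTtaa
Jam3, chr9:27098366-27098395, minus strand: ttcagacacaaatcgTCCTTTGTTATCtga
F11r, chr1:171463065-171463094, plus strand: ttcaaacagacctcgTCGTTCCTGGTGtga
Nectin1, chr9:43803987-43804016, plus strand: ttcatttccaagaaaGAGTGGTATGTGtag
Nectin2, chr7:19717515-19717544, minus strand: ttttttgtgtcacggGCCATGTATGTGtga
Nectin3, chr16:46448388-46448417, minus strand: gtaatttccaggaggGAGTGGTATGTCtaa
Pvr, chr7:19905127-19905156, minus strand: ctgaacatggagccaAACAGCACAAGGtga

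Within the capitals, Jam2 and Jam3 shared 9 of 12 bases, and each shared 6 of 12 with F11r. Nectin1 and Nectin3 shared 11 of 12 bases, and Nectin2 shared 8 of 12 with Nectin1 and 7 of 12 with Nectin3. Pvr shared 3 of 12 with Nectin1, 3 of 12 with Nectin2 and 2 of 12 with Nectin3. Each JAM gene shared between 2 and 5 of 12 bases with each nectin gene, fewer than any pair of JAM genes or any pair of the 3 nectin genes, and Pvr shared 2 to 4 of 12 with the JAM genes. Of Jam2, Nectin1, Nectin3 and Pvr, no stretch of 75 bases, the read length of the sequencing, was shared exactly with a transcript of another gene.

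Counting without regard to strand touched 3 of the genes. The exons of Jam3 (chr9:27097384-27155421, minus strand) overlap the antisense gene Gm48796 over 36.2% of their length, those of Nectin2 overlap Gm20512 over 3.86% and those of Afdn overlap Tcte2 over 2.16%. Reads from these stretches cannot be assigned to one gene, so the level of Jam3 is uncertain. The exons of Jam2 (chr16:84774123-84825928, plus strand), F11r (chr1:171437535-171464603, plus strand), Nectin1 (chr9:43743984-43807461, plus strand), Nectin3 (chr16:46387706-46498525, minus strand) and Pvr (chr7:19903578-19921160, minus strand) overlap no other annotated gene. Igsf5 is listed under 2 identifiers in the annotation, of which 1 is in the count table.

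Between 25388139 and 37158661 reads per sample were counted in the E14 groups and between 19915222 and 20140699 in the Esrrb fl/fl groups. The values below are CPM, counts scaled to a common library total after TMM scaling over all 18 samples. Replicate 1 stood apart from replicates 2 and 3 in every group, with a chi-square per gene of 11.8 to 65.9 against them and of 1.46 to 8.57 between replicates 2 and 3. Each comparison was therefore also computed without replicate 1. The 7 listed pluripotency genes were above 1 CPM in every group, but their levels differed between groups. From DMSO to 2i the mean CPM rose for Nanog (25.6 to 506), Sox2 (84.7 to 457), Zfp42 (42.8 to 545) and Pou5f1 (603 to 849). The mean fell for Utf1 (687 to 192) and Lin28a (993 to 455), and Sall4 overlapped (238 and 229). With 4OHT all 7 means were lower than without it, for example 842 against 1223 CPM for Pou5f1 and 54.7 against 298 CPM for Sox2. Esrrb itself had 144, 111 and 110 CPM in Esrrb floxed and 58.1, 62.7 and 58.7 CPM in Esrrb null replicates 1 to 3, a log2 fold change of -0.99 ± 0.10 (standard error, edgeR adjusted p = 7.44e-05). This is just short of the minimum fold used for calls, and counts per gene do not separate transcripts that lack the deleted part.

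Jam2 varied more between the groups than any other of these genes. In DMSO its 3 samples had 15, 6 and 4 counts, or 0.401, 0.188 and 0.155 CPM, and in Fgf2/Activin they had 23, 27 and 14 counts, or 0.694, 0.888 and 0.487 CPM. JAM-B transcript was thus at no more than 27 counts per sample in both media without CHIR99021. In CH the samples had 26.8, 30.2 and 34.5 CPM, and in 2i they had 104, 103 and 103 CPM. In Esrrb floxed cells, which were also in CH, Jam2 stood at 63.3, 42.2 and 42.7 CPM, and in Esrrb null cells at 2.35, 3.01 and 2.39 CPM. From high to low the group means were 103.5 ± 0.862 in 2i, 49.4 ± 12.0 in Esrrb floxed, 30.5 ± 3.86 in CH, 2.59 ± 0.369 in Esrrb null, 0.690 ± 0.201 in Fgf2/Activin and 0.248 ± 0.134 CPM in DMSO (SD, n = 3 each). No neighbouring groups in this order overlapped.

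In edgeR's fit the log2 fold change of Jam2 was 6.85 ± 0.25 between CH and DMSO (standard error), a 115.7-fold difference. It was 8.62 ± 0.26 between 2i and DMSO, and 1.76 ± 0.17, or 3.39-fold, between 2i and CH. Against Fgf2/Activin it was 7.22 ± 0.23 for 2i and 5.46 ± 0.22 for CH. In Esrrb null cells Jam2 fell to 0.0539 of its level in Esrrb floxed cells, a log2 fold change of -4.21 ± 0.20. With the few counts in DMSO, the size of the folds against it is less certain than their direction, and without replicate 1 the fold changes were 7.52 for CH and 9.19 for 2i. Between Fgf2/Activin and DMSO the log2 fold change was 1.40 ± 0.32 and not called, although all 3 Fgf2/Activin samples lay above all 3 DMSO samples. That difference was called without replicate 1, at 1.98, and by DESeq2's test.

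**Figure D1:**
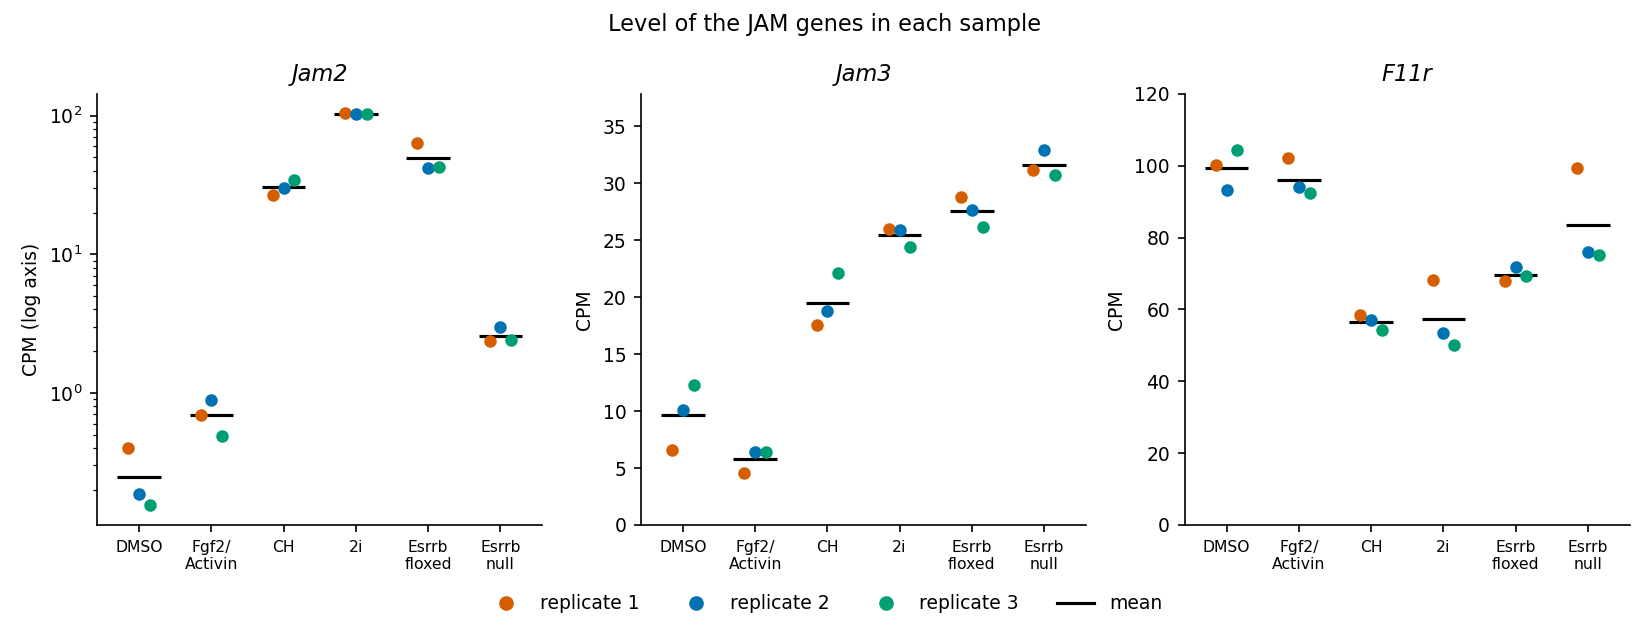
CPM of Jam2 (log axis), Jam3 and F11r (linear axes) in the 3 samples of each of the 6 groups, coloured by replicate number, with the group mean as a bar. Jam2 spans 0.155 to 104 CPM and is low again in Esrrb null cells, whereas Jam3 in Esrrb null cells stays at 30.7 to 32.9 CPM and F11r lies between 50.2 and 104 CPM throughout.

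Jam3, whose product JAM-C is the heterophilic partner of JAM-B, was higher in CH and 2i by a smaller factor. It had 6.61, 10.1 and 12.3 CPM in DMSO, 4.53, 6.42 and 6.40 CPM in Fgf2/Activin, 17.5, 18.8 and 22.1 CPM in CH, and 26.0, 25.9 and 24.4 CPM in 2i. The 4 groups of E14 cells did not overlap. The log2 fold change was 1.02 ± 0.21 between CH and DMSO, 1.40 ± 0.21 between 2i and DMSO, 1.76 ± 0.22 between CH and Fgf2/Activin and 2.14 ± 0.22 between 2i and Fgf2/Activin. The first of these was at the minimum for a call and was no longer called without replicate 1, at 0.88, without CH replicate 3 or without DMSO replicate 1. Between 2i and CH, Jam3 differed by 0.38 ± 0.21 and was not called.

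In the comparison in which Jam2 fell, Jam3 was not called. Jam3 had 28.8, 27.7 and 26.2 CPM in Esrrb floxed and 31.1, 32.9 and 30.7 CPM in Esrrb null cells. These are the highest Jam3 levels of all 6 groups, and the log2 fold change of 0.24 ± 0.07 was not called. All Jam3 values are subject to the overlap with Gm48796.

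F11r, which encodes JAM-A of tight junctions, was at lower levels in CH and 2i, by less than the minimum fold for a call. Its samples had 100.1, 93.1 and 104 CPM in DMSO and 102, 94.1 and 92.3 CPM in Fgf2/Activin, against 58.4, 57.1 and 54.2 CPM in CH and 68.2, 53.3 and 50.2 CPM in 2i. Neither CH nor 2i overlapped DMSO or Fgf2/Activin. The log2 fold changes were -0.81 ± 0.11 for CH and -0.79 ± 0.11 for 2i against DMSO, and -0.76 ± 0.11 and -0.75 ± 0.11 against Fgf2/Activin. In Esrrb floxed cells F11r had 67.8, 71.8 and 69.3 CPM and in Esrrb null cells 99.5, 75.8 and 75.2 CPM. The 2 groups did not overlap, and the log2 fold change was 0.30 ± 0.10, or 0.13 without replicate 1, and not called.

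Of Nectin1, Nectin2 and Nectin3, Nectin1 had the largest difference between media. It had 27.3, 40.1 and 63.2 CPM in DMSO and 32.0, 36.9 and 39.5 CPM in Fgf2/Activin, against 4.60, 13.6 and 11.2 CPM in CH and 2.86, 10.9 and 11.03 CPM in 2i. The samples with CHIR99021 all lay below those without it, and replicate 1 was the lowest sample in all 6 groups. The log2 fold changes were -2.15 ± 0.50 between CH and DMSO, -2.39 ± 0.51 between 2i and DMSO and -2.12 ± 0.50 between 2i and Fgf2/Activin, all called. Between CH and Fgf2/Activin it was -1.88 ± 0.50 and narrowly not called. It was called in 6 of 15 alternatives, which were DESeq2's test, DESeq2's size factors, no filter on low counts, a fit of only the 6 samples compared, the replicate number as a block, and leaving out replicate 1 of every group, and in none of the 6 fits with a single sample left out. The call between CH and DMSO was kept in 2 of 6 fits with a single sample left out, and was lost without CH replicates 1 or 3 or DMSO replicates 2 or 3. The call between 2i and DMSO was lost without DMSO replicate 3, and that between 2i and Fgf2/Activin without Fgf2/Activin replicates 2 or 3.

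The Esrrb fl/fl cells did not show this low Nectin1 level in CH. Nectin1 stood at 27.4, 28.6 and 33.7 CPM in Esrrb floxed cells and at 23.3, 34.3 and 33.7 CPM in Esrrb null cells, which overlapped. The log2 fold change was 0.06 ± 0.15, with a 95% interval from -0.24 to 0.36. E14 cells in CH for 48 h and Esrrb floxed cells in CH for 24 h thus had 9.78 ± 4.65 and 29.9 ± 3.33 CPM of Nectin1 (SD, n = 3 each), and line, passage and time cannot be told apart.

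Nectin2, which encodes a nectin found in most epithelia, was the most abundant of the nectin genes per length. It had 205, 129 and 148 CPM in DMSO, 157, 112 and 116 CPM in Fgf2/Activin, 109, 93.7 and 95.7 CPM in CH, and 117, 92.5 and 93.4 CPM in 2i. Replicate 1 was the highest sample in every group. CH and 2i did not overlap DMSO, with log2 fold changes of -0.69 ± 0.18 and -0.67 ± 0.18 that were under the minimum for a call. In Esrrb floxed cells Nectin2 had 107, 96.3 and 97.4 CPM and in Esrrb null cells 175, 144 and 145 CPM. Among Nectin1, Nectin2 and Nectin3 this was the largest difference between these groups, without overlap, at a log2 fold change of 0.66 ± 0.08, which was not called.

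Nectin3, whose product pairs with nectin-1 and nectin-2, differed little between the media. It ranged from 31.8 to 49.0 CPM in DMSO, 46.3 to 52.8 CPM in Fgf2/Activin, 31.4 to 47.1 CPM in CH and 42.9 to 53.1 CPM in 2i. CH and 2i overlapped DMSO and Fgf2/Activin, and the log2 fold changes lay between -0.28 ± 0.18, for CH against Fgf2/Activin, and 0.33 ± 0.18, for Fgf2/Activin against DMSO. Esrrb floxed cells had 75.8, 85.4 and 82.8 CPM and Esrrb null cells 65.0, 68.8 and 64.0 CPM, above all E14 groups. The log2 fold change between them was -0.27 ± 0.06, without overlap and not called.

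Pvr, the nectin-like receptor, was called in none of the 7 comparisons. It had 19.4, 28.8 and 13.6 CPM in DMSO, 14.9, 23.3 and 21.9 CPM in Fgf2/Activin, 22.6, 21.5 and 21.1 CPM in CH and 25.8, 24.0 and 23.4 CPM in 2i. The spread within DMSO was wider than the differences between the media. In Esrrb null cells Pvr had 31.6, 23.1 and 24.0 CPM, above the 20.2, 20.3 and 17.4 CPM of Esrrb floxed cells, at a log2 fold change of 0.48 ± 0.13 that was not called.

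Afdn, which encodes the afadin that anchors nectins to actin, had the highest CPM of these genes. Its samples had 415, 332 and 343 CPM in DMSO and 348, 310.1 and 332 CPM in Fgf2/Activin, against 249.8, 205 and 213 CPM in CH and 288, 233 and 233 CPM in 2i. CH and 2i overlapped neither DMSO nor Fgf2/Activin. The log2 fold changes against DMSO were -0.70 ± 0.11 in CH and -0.53 ± 0.11 in 2i, under the minimum for a call. In Esrrb floxed cells Afdn had 278, 297 and 299.7 CPM and in Esrrb null cells 228, 249 and 236 CPM. The log2 fold change was -0.26 ± 0.05, without overlap and not called.

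**Figure D2:**
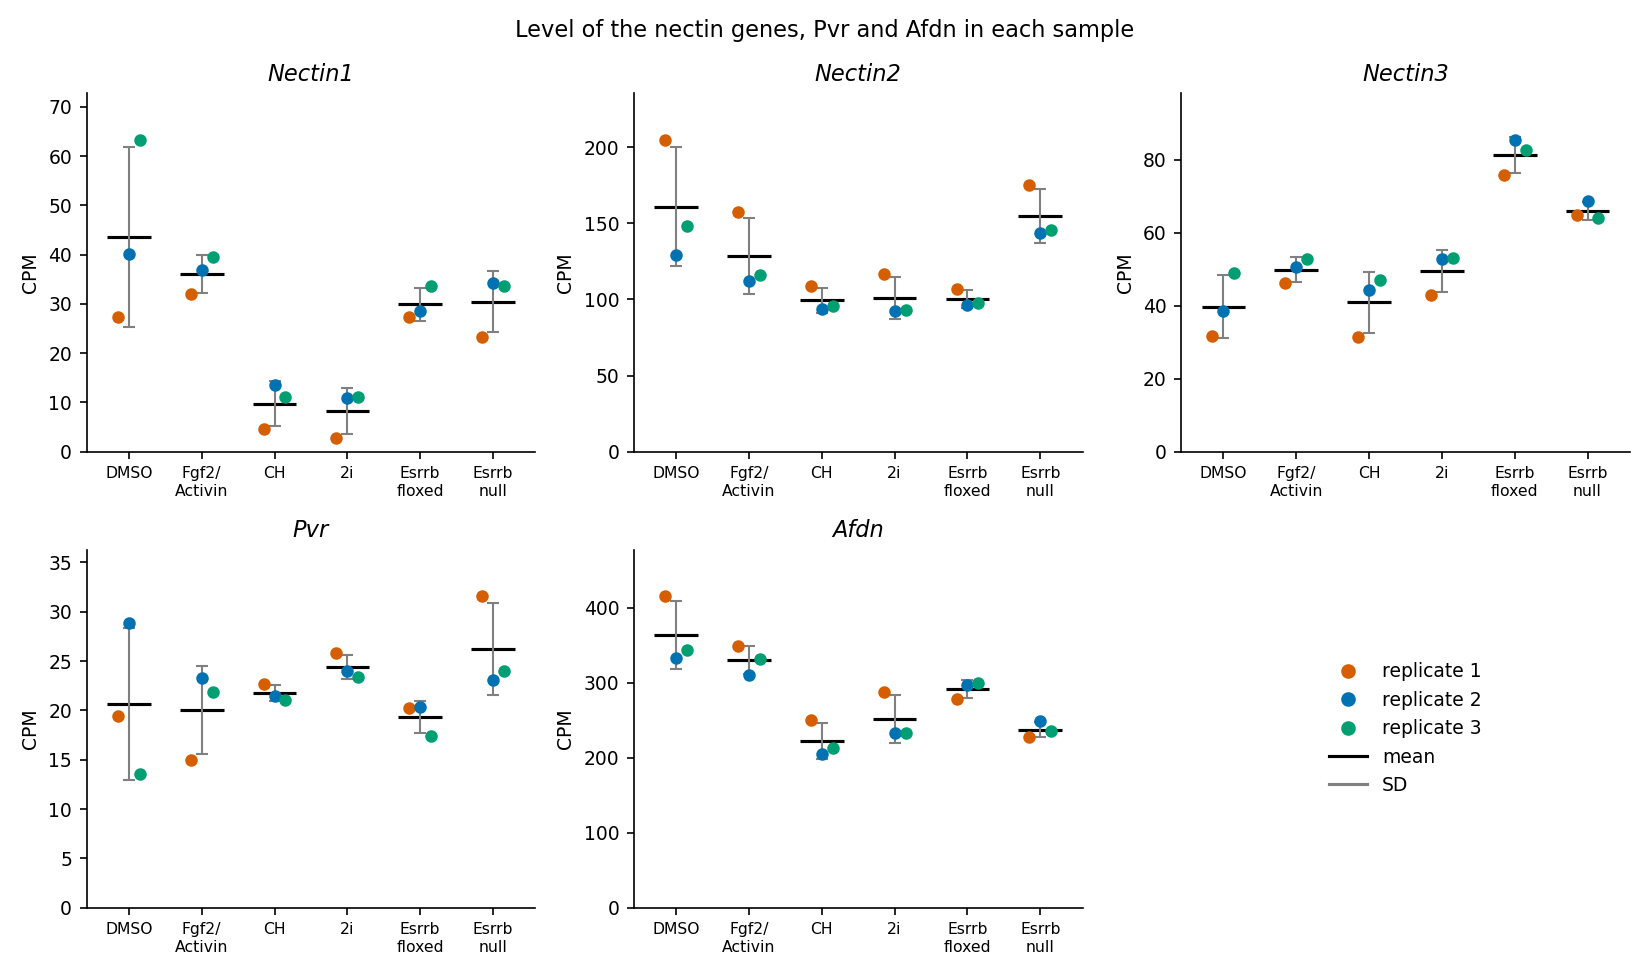
CPM of Nectin1, Nectin2, Nectin3, Pvr and Afdn (linear axes from 0) in the 3 samples of each group, coloured by replicate number, with group means and SD. Nectin1 lies at 2.86 to 13.6 CPM in CH and 2i and at 23.3 to 63.2 CPM in the other 4 groups, and replicate 1 is the lowest sample of each group for Nectin1 and the highest for Nectin2.

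Igsf5 was hardly detected. It had 1 count in all of DMSO, 1, 3 and 3 counts in Fgf2/Activin, 4, 1 and 1 counts in CH, 0, 1 and 3 counts in Esrrb null cells and none in the 2i and Esrrb floxed samples. A count of 0 allows up to 3 counts, or 0.0885 to 0.104 CPM in the 2i samples, for counting error only. It did not pass the filter on low counts and was not tested.

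Of the 9 genes, 8 were tested in both fits. To be called, a gene had to have an adjusted p-value (Benjamini-Hochberg, quasi-likelihood test of edgeR) below 0.01 and a log2 fold change beyond 1 in size. Between CH and DMSO, 2 of the 8 were called higher (Jam2 and Jam3) and 1 lower (Nectin1), where 7.51% of all tested genes were called higher and 10.2% lower. Between 2i and DMSO the same 3 genes were called in the same directions, against 8.37% higher and 14% lower of all genes. Between Fgf2/Activin and DMSO none was called, against 0.902% and 0.347%, and without replicate 1 or by DESeq2's test Jam2 was called higher. At an unadjusted p-value under 0.05 in edgeR, 1 of the 8 was higher and 1 lower in that comparison, against 8.12% and 8.76% of all tested genes. Between 2i and CH only Jam2 was called, higher, against 0.317% higher and 1.67% lower. Against Fgf2/Activin, 2i again had Jam2 and Jam3 called higher and Nectin1 lower, against 9.13% and 14.4% of all genes, and CH had Jam2 and Jam3 called higher, against 7.9% and 10.3%. Between Esrrb null and Esrrb floxed cells, 1 of the 8, Jam2, was called lower and none higher, by edgeR and by DESeq2's test, where 3.87% of all genes were called lower and 12.8% higher. At an unadjusted p-value under 0.05 in edgeR, 4 of the 8 were higher and 3 lower there, against 33% and 29.9% of all tested genes. The comparisons among the E14 groups share samples, so they are not independent of each other. The median log2 fold change of the 8 genes was -0.32 between CH and DMSO and 0.15 between Esrrb null and Esrrb floxed cells, beside 0.00 over all tested genes in both.

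**Figure D3:**
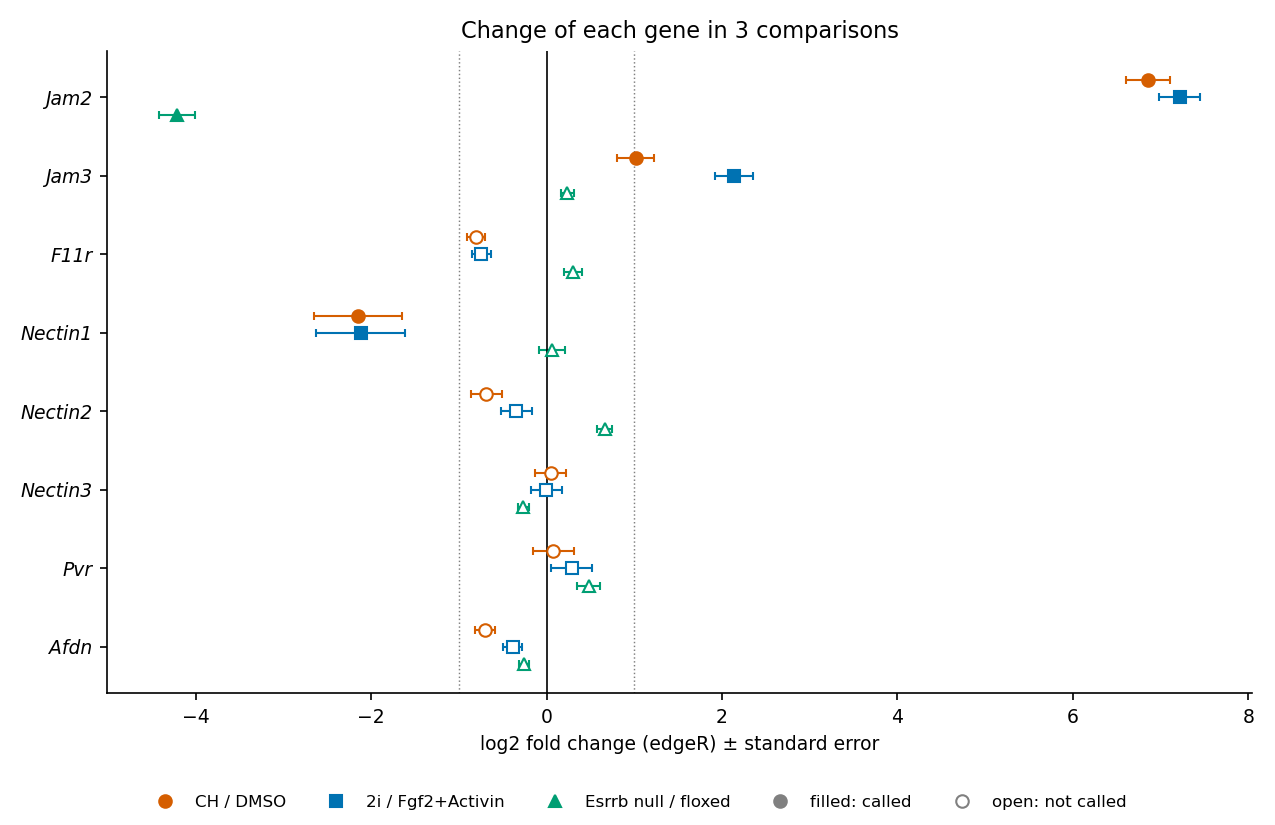
Log2 fold change ± standard error from edgeR (horizontal axis) of the 8 tested genes between CH and DMSO, 2i and Fgf2/Activin, and Esrrb null and Esrrb floxed cells. Filled symbols are called and the dotted lines mark the minimum fold. Jam2 is the one gene called in all 3 comparisons, at 6.85, 7.22 and -4.21.

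Per kilobase of exon, on which levels of different genes can be compared, the order of the JAM genes changed with the medium. The length is that of all annotated exons of a gene together. The transcripts present in these cells may be shorter, so the order of genes with close levels is uncertain. The full exon length was used for Jam3, although reads over 36.2% of it cannot be assigned. The level of Jam3 per kb may thus be too low, and its place beside Jam2 is less certain. In DMSO, F11r had 37.3 ± 2.14 CPM per kb, Jam3 3.02 ± 0.900 and Jam2 0.0410 ± 0.0222 (SD, n = 3 each). In 2i, F11r had 21.5 ± 3.62, Jam2 17.1 ± 0.143 and Jam3 7.94 ± 0.274 CPM per kb. By this measure F11r was the highest of the JAM genes in both media, with Jam2 close to it in 2i. Jam2 passed from the lowest to a level above Jam3. In Esrrb floxed cells Jam2 and Jam3 had 8.17 ± 1.99 and 8.61 ± 0.412 CPM per kb and overlapped, and in Esrrb null cells they had 0.428 ± 0.0610 and 9.87 ± 0.370. Among the nectin genes, Nectin2 was the highest in every group, from 28.4 ± 2.33 CPM per kb in CH to 46.0 ± 11.2 in DMSO. Nectin1 stood above Nectin3 in DMSO, at 7.70 ± 3.22 against 3.12 ± 0.681 CPM per kb, and below it in 2i, at 1.46 ± 0.827 against 3.89 ± 0.455. Afdn lay between 21.8 ± 2.35 CPM per kb in CH and 35.6 ± 4.40 in DMSO.

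**Figure D4:**
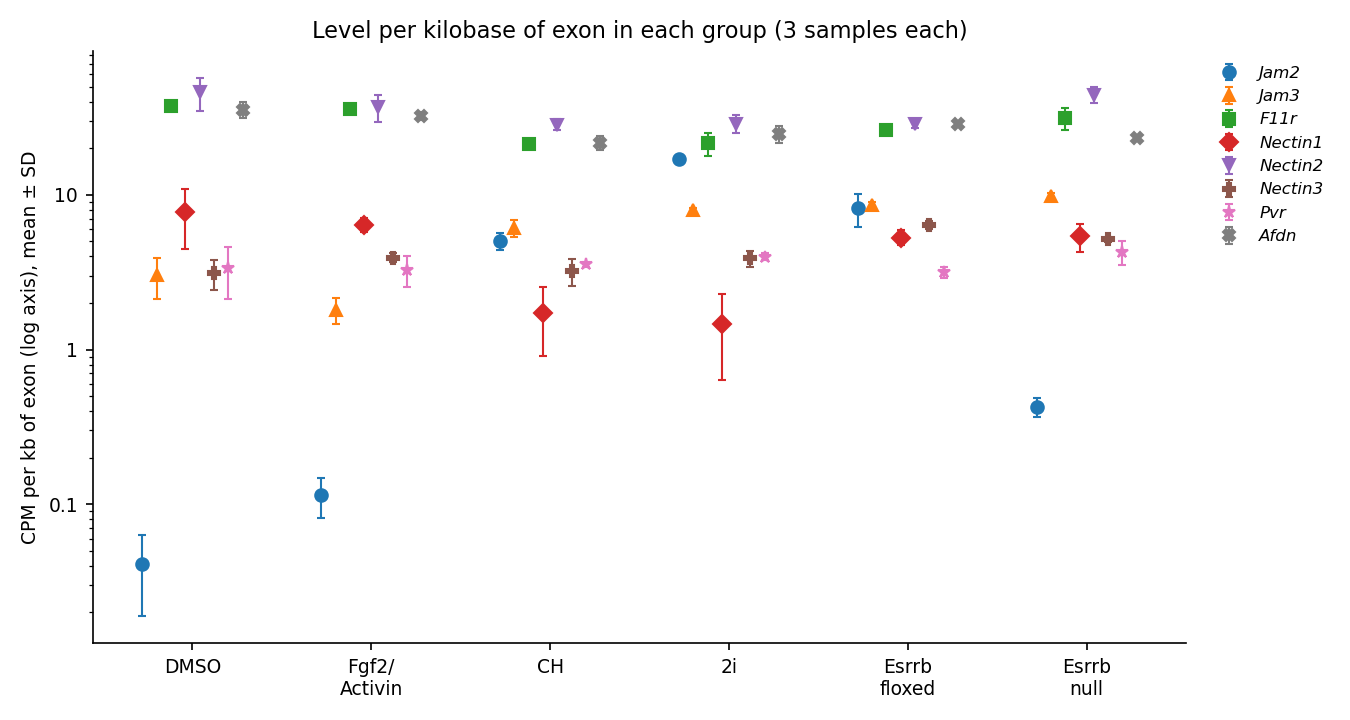
Mean level per kilobase of exon ± SD (log axis, CPM per kb) of the 8 detected genes in the 6 groups, 3 samples each. F11r, Nectin2 and Afdn stay between 21.2 and 46.0 CPM per kb in all groups, Nectin1 is lowest in CH and 2i, and Jam2 covers the widest range.

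The genes whose log2(CPM + 1) over the 18 samples was most like that of Jam2, among the 11043 genes averaging 100 counts or more, were Acadm, Scn3a, Stmn2, Tdrd12 and Lap3, with Pearson's r from 0.983 to 0.988. Acadm encodes a mitochondrial acyl-CoA dehydrogenase, Scn3a a sodium channel subunit, Stmn2 a stathmin of the microtubule cytoskeleton, Tdrd12 a piRNA pathway protein and Lap3 an aminopeptidase. Stmn2, for example, had a mean of 21.5 CPM in DMSO, 172 in CH, 252 in 2i, 186 in Esrrb floxed and 54.7 in Esrrb null cells. The most opposite were Ltbr, Smo, Pea15a, Ptprs and Prr7, with r from -0.994 to -0.985. Ltbr, the lymphotoxin beta receptor, had 12.1 CPM in DMSO, 1.92 in CH, 0.903 in 2i, 1.40 in Esrrb floxed and 7.70 in Esrrb null cells. Smo, the transducer of Hedgehog signalling, had 88.2, 20.3, 9.42, 15.1 and 54.3 CPM in the same groups. Among the adhesion genes, r with Jam2 was 0.66 for Jam3, 0.24 for Nectin3, 0.13 for Pvr, -0.57 for Afdn, -0.71 for Nectin1, -0.76 for Nectin2 and -0.89 for F11r. The 18 points share their groups and fall into clusters, so these values describe likeness only.

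Relatives of the JAMs and nectins were followed in a list of 10 genes, of which 9 were tested in E14 cells and 7 in Esrrb fl/fl cells. This list and the partner lists below were drawn up with earlier results of these data known. The adjusted p-values printed for their genes are therefore a description and no independent test. Between CH and DMSO 2 of the 9 rose and 2 fell, where 7.51% of all tested genes were called higher and 10.2% lower. The numbers were 3 and 3 in the blocked fit, which has the replicate number as a term, 3 and 2 by DESeq2's test, and 2 and 3 of 8 tested without replicate 1. Over all genes, 2907 were called in the main fit, 3608 in the blocked fit and 3182 by DESeq2's test. These totals are not split by direction, and none is given without replicate 1. The numbers in other settings therefore describe only how calls depend on processing. Nectin4, a nectin of embryonic and skin epithelia, had 6.21, 5.54 and 5.14 CPM in DMSO and 1.09, 0.327 and 0.320 CPM in CH, a log2 fold change of -3.26 ± 0.45 (edgeR adjusted p = 0.000172). Igsf11, a homophilic adhesion molecule, fell by 2.93 ± 0.36 on the log2 scale (edgeR adjusted p = 7.12e-05), from a mean of 1.48 to 0.191 CPM. Cadm4, a nectin-like molecule, rose by 2.35 ± 0.60 (edgeR adjusted p = 0.00845), but CH replicate 1 had 25.9 CPM against 5.94 and 5.28 in the others, and the log2 fold change was 1.21 and not called without it. Esam, an endothelial relative of the JAMs, rose by 3.04 ± 0.75 (edgeR adjusted p = 0.00716), with 0.409, 3.56 and 3.12 CPM in CH and 0.0803, 0.345 and 0.464 CPM in DMSO, which overlapped. Its call was lost without CH replicate 2 or 3 and without any 1 of the DMSO samples, and that of Cadm4 also without any 1 of the DMSO samples.

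Between 2i and Fgf2/Activin, 1 of the 9 relatives rose and 2 fell, against 9.13% and 14.4% of all genes. Nectin4 and Igsf11 had log2 fold changes of -4.28 ± 0.48 and -5.04 ± 0.37 (edgeR adjusted p = 2.75e-05 and 1.01e-06). Jaml, an adhesion molecule of leukocytes, was called higher on 23, 10 and 11 counts in 2i against 0, 1 and 0 in Fgf2/Activin, and was not called with any 1 of these samples left out. With the replicate number as a block 3 relatives rose and 3 fell, without replicate 1 the numbers were 3 and 3 of 8 tested, and by DESeq2's test 2 and 2. The calls over all genes were 3857 in the main fit, 4514 with the block and 4114 by DESeq2's test. As before, these totals are not split by direction and lack the fit without replicate 1. Between Esrrb null and Esrrb floxed cells 1 of 7 relatives was called higher and none lower in edgeR, against 12.8% and 3.87% of all genes. At an unadjusted p-value under 0.05, 2 of the 7 were lower, against 29.9% of all genes, and 1, Clmp, was called lower by DESeq2's test and with DESeq2's size factors. Cadm4 had 9.75 ± 2.82 CPM in Esrrb floxed and 41.3 ± 4.26 CPM in Esrrb null cells (SD, n = 3 each). Its log2 fold change was 2.12 ± 0.19 (edgeR adjusted p = 3.18e-05). Without replicate 1, Jaml was called higher as well. The 4 listed receptors through which immune cells bind nectins and Pvr (Cd226, Tigit, Cd96 and Crtam) had at most 10 counts in any sample and were not tested.

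Of the 17 PDZ-domain and signalling proteins listed as cytoplasmic partners of the JAMs, all were tested. Between CH and DMSO 1 was called higher and 2 lower, against 7.51% and 10.2% of all genes. Patj was called lower as well in the blocked fit, by DESeq2's test and without replicate 1. Cask, a membrane-associated guanylate kinase that binds JAM-A, had 15.1, 18.1 and 16.5 CPM in DMSO and 93.4, 76.0 and 81.1 CPM in CH, a log2 fold change of 2.34 ± 0.12 (edgeR adjusted p = 1.93e-07). Pard6b, a subunit of the Par polarity complex, had a log2 fold change of -1.51 ± 0.17 and Mpdz, a scaffold with many PDZ domains, of -2.04 ± 0.17 (edgeR adjusted p = 3.91e-05 and 4.59e-06). Between 2i and Fgf2/Activin Cask rose by 2.05 ± 0.12, and 4 partners fell, against 9.13% and 14.4% of all genes called higher and lower. These were Mpdz, with a log2 fold change of -3.45 ± 0.18, Patj, a scaffold of the Crumbs complex, with -1.64 ± 0.34, Pard6b with -1.23 ± 0.17, and Tjp1, which encodes ZO-1, with -1.09 ± 0.08. Tjp1 was also lower in CH than in DMSO, at -0.93 ± 0.08, just short of the minimum fold for a call. The call of Patj was lost without 2i replicate 2 or 3.

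Between Esrrb null and Esrrb floxed cells 4 of the 17 partners were called higher and none lower, by edgeR and by DESeq2's test. Of all tested genes, 12.8% were called higher and 3.87% lower by edgeR. At an unadjusted p-value under 0.05 in edgeR, 9 of the 17 were higher and 3 lower, against 33% and 29.9% of all genes. Patj had 7.14 ± 0.254 CPM in Esrrb floxed and 54.5 ± 5.62 CPM in Esrrb null cells (SD, n = 3 each). Its log2 fold change was 2.97 ± 0.10 (edgeR adjusted p = 5.99e-07). Mpdz rose by 1.67 ± 0.21 and Pard6g, another Par-6 gene, by 1.40 ± 0.09. Pard3b, the relative of Par-3, rose by 2.57 ± 0.46 from 0.211 to 1.24 CPM, and 4.43% of its exon length overlaps its antisense gene Pard3bos1. Their adjusted p-values from edgeR were 0.000207, 7.15e-06 and 0.00145. Cask, called higher in CH and 2i, had a log2 fold change of -0.01 ± 0.06 here. The median over the 17 partners was -0.31 between CH and DMSO and 0.23 between Esrrb null and Esrrb floxed cells.

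Of the 11 names listed as partners of afadin and nectins, 10 are in the count table and all 10 were tested. Between CH and DMSO 1 rose and 1 fell, against 7.51% and 10.2% of all genes. Ssx2ip, a protein that binds afadin and α-actinin, fell by 1.11 ± 0.08 on the log2 scale and Rap1gap, which inactivates the afadin-binding GTPase Rap1, rose by 1.28 ± 0.21 (edgeR adjusted p = 1.19e-06 and 0.00063). The same genes were called between 2i and Fgf2/Activin, with log2 fold changes of -1.41 ± 0.08 and 1.64 ± 0.21, against 14.4% of all genes lower and 9.13% higher. None of the 10 was called between Esrrb null and Esrrb floxed cells by edgeR or by DESeq2's test, against 12.8% of all genes higher and 3.87% lower. At an unadjusted p-value under 0.05 in edgeR 4 were higher and 3 lower, against 33% and 29.9% of all genes.

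**Figure D5:**
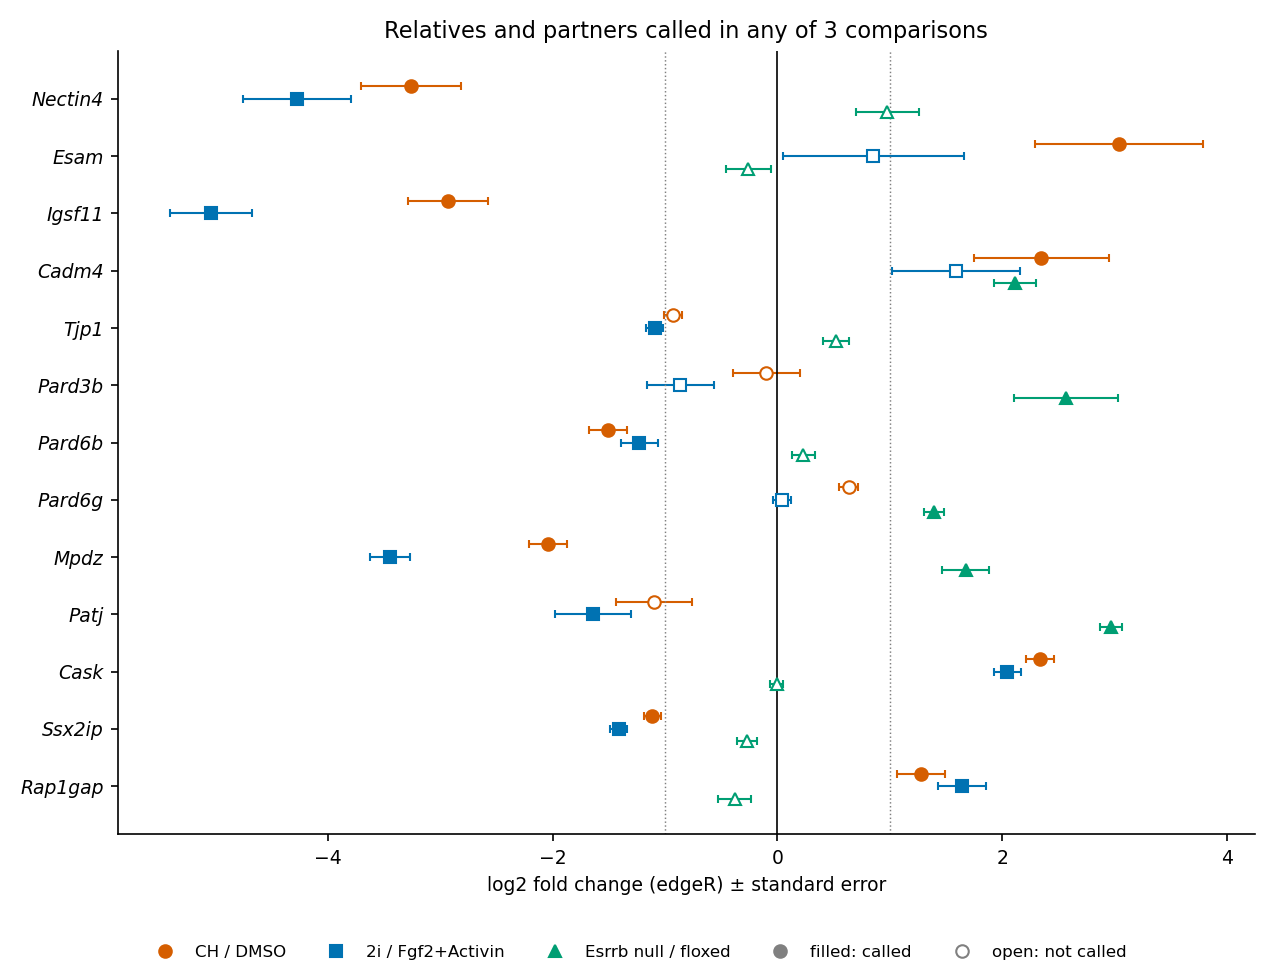
Log2 fold change ± standard error from edgeR (horizontal axis) of the 13 relatives and partners, other than Jaml, that were called in at least 1 of the same 3 comparisons. Filled symbols are called and open symbols are not. Mpdz and Patj lie below 0 in both comparisons of E14 cells and at 1.67 and 2.97 between Esrrb null and Esrrb floxed cells, and Igsf11 was not tested in the Esrrb fl/fl cells.

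Single genes from the marker lists of other cells moved with some of these groups, while other genes of the same lists did not. The summed level of 5 listed mesoderm and primitive streak genes was 8.86 to 13.8 CPM in DMSO, 11.5 to 17.7 in Fgf2/Activin, 460 to 692 in CH, 86.2 to 119 in 2i, 80.2 to 101 in Esrrb floxed and 432 to 553 in Esrrb null cells. It was thus high in CH and in Esrrb null cells, which stood at 30.5 and 2.59 CPM of Jam2. In CH and in Esrrb null cells most of the sum was T, with a mean of 0.469 CPM in DMSO, 534 in CH, 43.3 in Esrrb floxed and 396 in Esrrb null cells. Evx1 and Mixl1 also had higher means in CH than in DMSO and in null than in floxed cells, whereas Eomes had 11.5 CPM in DMSO, 2.71 in CH, 24.7 in Esrrb floxed and 21.04 in Esrrb null cells, and Mesp1 was at most 0.376 CPM in any sample. The 5 trophectoderm genes summed to 45.8 to 94.9 CPM in CH and to 7.27 to 26.5 CPM in the other groups, and in CH nearly all of it was Cdx2, at a mean of 63.7 CPM against 0.0933 in DMSO. Krt7 went the other way, from 13.7 CPM in DMSO to 1.09 in CH, and Elf5, Gata3 and Hand1 were at most 0.136 CPM in any CH sample. Of the 5 endothelial genes, which include Esam and of which Tek had the highest mean in every group, the sum was 6.34 to 17.6 CPM in the E14 groups, 24.8 to 30.6 in Esrrb floxed and 15.1 to 16.8 in Esrrb null cells, and the defining marker Cdh5 was at 0 in DMSO and Fgf2/Activin and at most 0.188 CPM elsewhere. The 5 fibroblast genes summed to 13.2 to 49.5 CPM in DMSO and Fgf2/Activin, 2.26 to 7.61 in CH and 2i and 7.96 to 26.6 in the Esrrb fl/fl groups, of which Thy1 had the highest mean in every group, the 6 primitive endoderm genes to 1.36 to 7.18, and the 5 blood genes to at most 2.75 CPM, with Hbb-bt at 0 in every sample. The part of these cells in the levels of the adhesion genes was not tested. In such bulk samples, fewer cells with a transcript and less transcript per cell cannot be told apart.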

How the data were processed

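RNA of 18 samples, 3 in each of 6 groups, was taken from the labels, which give group and replicate number. The authors sequenced poly(A) RNA, aligned the reads with TopHat2 to mm10, counted them per Ensembl gene of GRCm38 with HTSeq without strand, and deposited whole-number counts without normalisation. The processing notes also name DESeq2. The total counts per sample set the precision of low genes.

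Here the counts were scaled by TMM, filtered with filterByExpr and tested with edgeR 4.0.16 in R 4.3.3 (quasi-likelihood test, Benjamini-Hochberg adjustment), with the 12 E14 samples in one fit (16413 genes) and the 6 Esrrb fl/fl samples in another (14893 genes). The thresholds are those of the study's methods. The steps were first tested on simulated data. Symbols and exon lengths came from GENCODE M21, in which 49326 of the 49671 identifiers were found, and figures were drawn with matplotlib 3.10.9.

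The members and the lists of relatives, partners and markers were chosen with earlier results of these data known. Named are the 9 genes, Esrrb, listed relatives and partners called between CH and DMSO, 2i and Fgf2/Activin or Esrrb null and floxed cells, and the 5 genes most like and most opposite to Jam2.

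The deviations of same-numbered samples from the means of their groups correlated at 0.385 to 0.835 for every pair in every comparison, over genes averaging 100 counts or more. Only between Fgf2/Activin and DMSO did each sample of the first-named group correlate best with its own number in the other. As replicate 1 stood apart in every group, the correlations cannot show whether replicates 2 and 3 are paired. The numbers come from the labels, and a fit with the replicate number as a block was only an alternative. Other alternatives were DESeq2 1.42.0, other scalings and filters, other thresholds, fits of only the 6 samples compared and each sample left out in turn. The fit without replicate 1 of every group was added after seeing the data.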

Additional observations from a re-analysis of the deposited data

How the results depend on the processing

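None of the 826 recomputed fold changes of the adhesion genes reversed a call. In 784 the side of the threshold was kept, 19 lost a call and 20 gained one, and 3 of genes near no difference moved by more than their standard error. Of 574 fold changes recomputed for the named relatives and partners, none reversed, 30 lost a call and 15 gained one. Of 108 group levels, 6 moved by more than 1 SD with raw library totals, by which Jam2 in 2i was 101 CPM. The share of all genes called is not given for most alternative settings, so the numbers below describe only how calls depend on processing. The number of adhesion genes called moved by over 1.5 times, or to or from 0, as follows. Between CH and DMSO it went from 3 to 1 in a fit of only the 6 samples compared and with glmTreat against a log2 fold change of 1, and to 6 without a minimum fold. Between 2i and DMSO it went from 3 to 1 with glmTreat and to 6 without a minimum fold. Between 2i and CH it went from 1 to 0 with glmTreat and with at least 10 counts in every sample, a filter that Jam2 does not pass in DMSO. Between CH and Fgf2/Activin it went from 2 to 1 with that filter and to 4 without a minimum fold. Between Esrrb null and Esrrb floxed cells it went from 1 to 4 without a minimum fold. Between Fgf2/Activin and DMSO it went from 0 to 1 with DESeq2's test and without replicate 1 of every group. Smaller moves were from 2 to 3 between CH and Fgf2/Activin with DESeq2's test or size factors, no filter, only the 6 samples, the block and without replicate 1 of every group, where Nectin1 was added, and between 2i and Fgf2/Activin from 3 to 2 with glmTreat and with that filter and to 4 without a minimum fold. Between 2i and DMSO the number was 2 with that filter and with only the 6 samples, and between CH and DMSO 2 with that filter and without replicate 1 of every group.

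With each sample left out in turn, the number called lay between 1 and 3 for CH against DMSO (1 without CH replicate 3), between 2 and 3 for 2i against DMSO and 2i against Fgf2/Activin, at 2 for CH against Fgf2/Activin, and at 0 for Fgf2/Activin against DMSO, and it stayed at 1 for 2i against CH and for Esrrb null against Esrrb floxed cells. With the replicate number as a block, 3 of the 8 genes were called between CH and Fgf2/Activin against 2 without the block, and no other call of the 8 genes changed. Over all genes, the block raised the calls from 205 to 424 between Fgf2/Activin and DMSO and from 326 to 672 between 2i and CH, and DESeq2's test gave 374 and 597. The few counts of Jam2 in DMSO and Fgf2/Activin limit the size of its folds, and the cause of these changes was not tested.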
